A study of Gossypium hirsutum with 2 samples.

Results

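The genes described here are cotton transcription factor genes of the AP2/ERF, NAC, WRKY and MYB families whose promoters carried a peak with GhD53. GhD53 belongs to the D53 family of upland cotton (Gossypium hirsutum), whose rice and Arabidopsis relatives repress strigolactone responses until the hormone triggers their degradation. DNA affinity purification sequencing was used. It exposes extracted genomic DNA fragments to a tagged protein expressed in vitro and sequences the fragments recovered with it. The DNA was from fiber, the elongated seed hair of cotton. There was 1 purified (IP) library and 1 input library, and no library from a purification without GhD53 was analysed here, so recovery with GhD53 and recovery by the purification itself cannot be told apart.

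The members were the genes of the longer of 2 deposited promoter peak lists whose authors' family label contained AP2, ERF, NAC, WRKY or MYB. This gave 56 of the 2111 genes in that list, each with 1 peak. They comprised 21 AP2/ERF, 10 NAC, 9 WRKY and 14 MYB or MYB-related genes. The remaining 2, GH_A04G0639 and GH_A05G3225, carried the label mTERF, which names mitochondrial transcription termination factors and contains the letters ERF by coincidence. They are kept in the totals and described apart from the 4 families. Family and gene name come from sequence similarity, so "CRF6-like" and similar names are descriptions of the best protein hit, not tested functions. An informative hit was given for 46 of the 56 genes.

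These families are among the largest groups of plant transcription factors, and each is named for its DNA-binding domain. AP2/ERF factors include the ethylene response factors, the DREB factors of drought and cold responses, and the AP2 type that acts in meristems and flowers. NAC factors act in organ boundaries, senescence, stress and wall thickening. WRKY factors are best known from immunity. R2R3-MYB factors control phenylpropanoid metabolism and epidermal cell fate, and MIXTA-type MYB genes promote fiber initiation in cotton. The longer list held 0 genes described as MIXTA, MYB25, MYB106, MYB109 or GLABROUS1, words chosen after the values were seen. How many genes of the genome carry such names was not analysed here. The count of 0 therefore does not show that their promoters were unbound.

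Pileup is the number of purified fragments stacked at a peak's summit, and fold is the enrichment of that stack over background. Both are the authors' own values for each peak. All 56 member peaks were low. Pileups ran over 4 to 9 fragments with a median of 5 (quartiles 5 and 6), where the whole list of 2183 peaks ran over 4 to 748 with the same median. Member folds had a median of 3.73 and ran over 2.97 to 6.22, beside a median of 3.73 and a range of 1.30 to 25.5 over all peaks. The background recovered from these values was at the lowest level in the list, 0.608 fragments, under 52 of the 56 member peaks (92.9%) and under 84.5% of all peaks. On that background each pileup gives a fixed fold, so equal folds at different genes stand for equal whole-number stacks and give no finer ranking.

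By height, 9 member peaks had a pileup of 4 (3.11-fold), 28 a pileup of 5, 15 a pileup of 6 (4.35-fold), 2 a pileup of 7 (4.98-fold) and 2 a pileup of 9 (6.22-fold). Stacks of 5 were 3.73-fold on the lowest background. The −log10 q followed the same steps on that background, 0.917, 1.51, 2.27, 3.17 and 5.25 at pileups of 4, 5, 6, 7 and 9. Stacks of 5 made up 50% of the members, against 35.0% of all peaks. A pileup of 6 or more was reached by 19 members (33.9%), where the background over all peaks was 45.2%. No member reached a pileup of 10, a limit chosen after the values were seen. Over all peaks 9.85% reached it. As this limit was set with the values known and lies above the tallest member, the count of 0 sets no bound on the share. A q-value of 0.05 or lower was given to 46 members (82.1%), beside 79.0% of all peaks, and one of 1e-05 or lower to 2 members (3.57%), beside 10.4% of all peaks. These shares are descriptions of 1 comparison and were not tested.

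**Figure D1:**
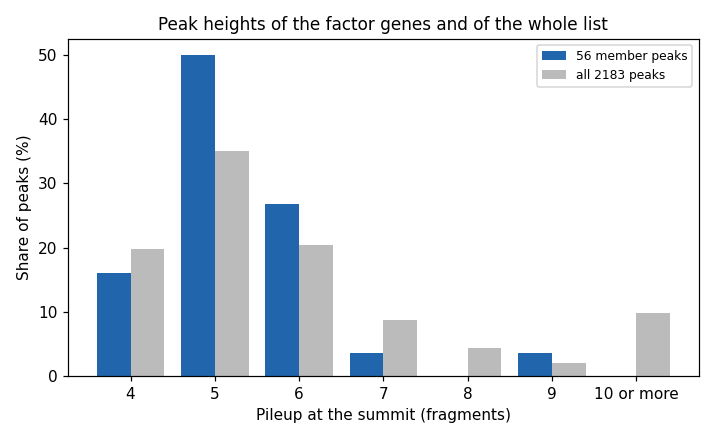
Share of peaks (vertical axis, percent) at each pileup at the summit (horizontal axis, fragments), for the 56 member peaks (blue) and all 2183 peaks of the longer list (grey). Members concentrate at 5 fragments (50% against 35.0%) and none reaches 10 or more, where 9.85% of all peaks lie. The limit of 10 was chosen after the values were seen.

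The second deposited list is shorter and comes from the same pair of libraries, so presence in both is not replication. Of the 56 members 17 were also in the shorter list (30.4%, Wilson 95% interval 19.9 to 43.3), where 34.3% of all longer-list genes were. The 17 had the same pileup and fold in both lists. Presence followed height in part. It held for 0 of 9 members with a pileup of 4, 3 of 28 with a pileup of 5, 11 of 15 with a pileup of 6, 1 of 2 with a pileup of 7 and 2 of 2 with a pileup of 9. Over all peaks the shares at the genes of these heights were 1.62%, 14.8%, 41.7%, 79.4% and 100%. By family, 6 of 21 AP2/ERF, 5 of 10 NAC, 3 of 9 WRKY and 3 of 14 MYB genes were in both lists. The Wilson 95% intervals of these 4 shares, 13.8% to 49.96%, 23.7% to 76.3%, 12.1% to 64.6% and 7.57% to 47.6%, all included the background of 34.3%.

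**Figure D2:**
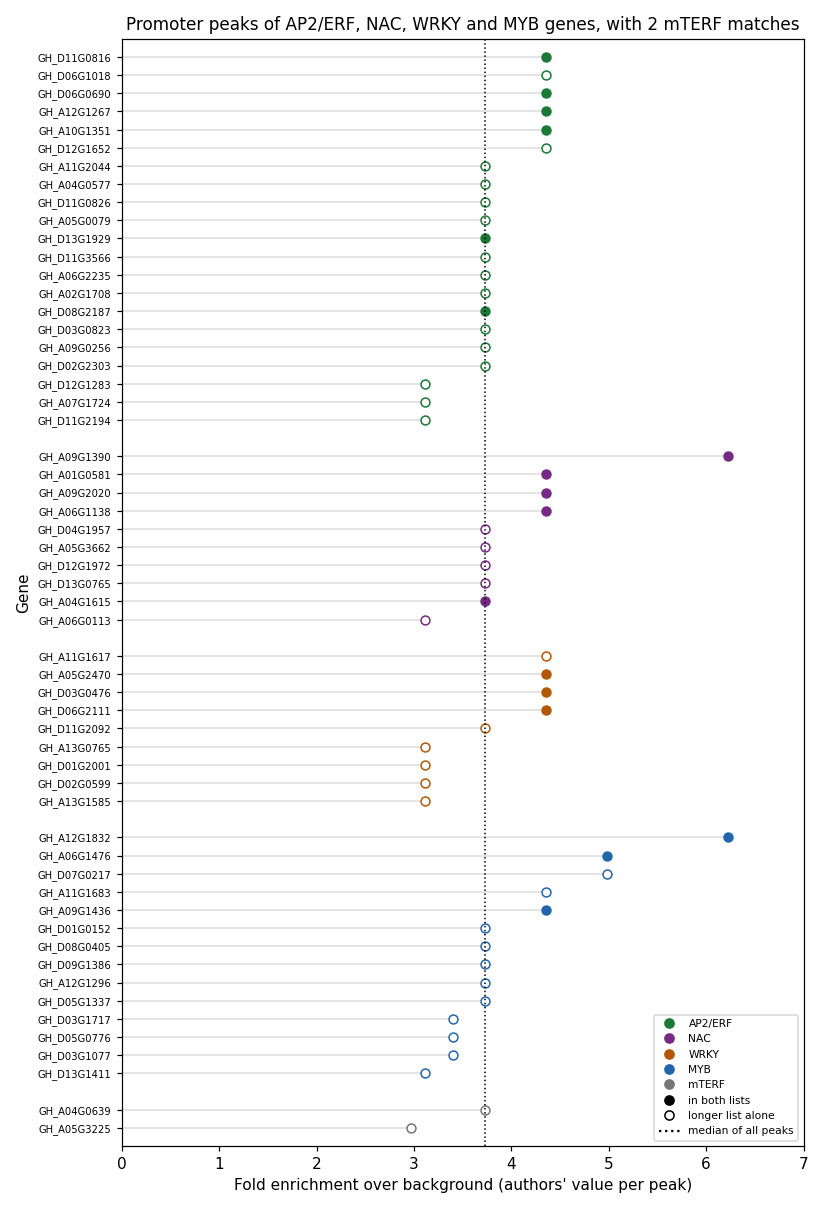
Fold enrichment over background (horizontal axis, the authors' value per peak) for each of the 56 genes (rows), coloured by family. Filled points are genes in both lists and open points genes in the longer list alone, and the dotted line is the median of all peaks, 3.73. Points fall on a few fixed folds, and only GH_A09G1390 and GH_A12G1832 reach 6.22.

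The AP2/ERF family gave the most members, and none stood out by height. The 21 peaks had pileups of 4 to 6 and folds of 3.11 to 4.35, with a median of 3.73. Sorted by their names, 2 were of the DREB type, 9 of the ERF type and 8 of the AP2 type, and 2 had no informative name. The DREB type is known from drought and cold responses. GH_D06G0690, described as TINY-like after an Arabidopsis DREB factor, had a peak on chromosome D06 (11166841 to 11167002) with a pileup of 6, 4.35-fold and a −log10 q of 2.27. It lay 653 bp upstream and was in both lists. GH_D06G1018, described as a dehydration-responsive element-binding protein 3, had the same pileup and fold 627 bp upstream (D06, 20196839 to 20197001) but was in the longer list alone. The DREB pair therefore shared chromosome and height, at similar distances from the start site, while differing in list membership.

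Among the ERF type 4 of 9 genes were in both lists. GH_D11G0816, an ERF2-like gene, had a peak 430 bp upstream (D11, 6568527 to 6568746), which was the closest to a start site among the 17 members in both lists. Its pileup was 6 at 4.35-fold. GH_A10G1351, described as ERF062-like, had a pileup of 6 at 4.35-fold 1003 bp upstream (A10, 68830169 to 68830391). GH_D13G1929 is described after ERF1B, which in Arabidopsis joins ethylene and jasmonate signals in defence. Its peak had a pileup of 5 at 3.73-fold, 881 bp upstream (D13, 57084075 to 57084298). GH_D08G2187 has no informative protein hit, but the authors' pathway annotation gives it, like GH_D13G1929, the ERF1 entry of ethylene signalling. It was in both lists with a pileup of 5 and 3.73-fold, 1202 bp upstream (D08, 62202074 to 62202263). The 3 members with any pathway entry were these 2 and GH_D11G0816, whose entry is ERF2, and all 3 lie on the D subgenome and in both lists.

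The fourth ERF-type gene in both lists was GH_A12G1267, described after CRF6, a cytokinin response factor of Arabidopsis. It had a pileup of 6, 4.35-fold, 969 bp upstream (A12, 80981922 to 80982056), and its peak had identical limits in both lists. GH_D12G1283 carries the same description on the same-numbered D chromosome. Its peak was lower, with a pileup of 4 and 3.11-fold, 1155 bp upstream (D12, 40029323 to 40029463), a −log10 q of 0.917, and it was in the longer list alone. These were the only A and D members with a shared informative name on same-numbered chromosomes, 1 pair among the 22 named A members. These 2 genes differed by 2 fragments at the summit in this 1 library, and the difference was not tested. Whether they are A and D copies of 1 gene was not tested either.

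The rest of the ERF type lay in the longer list alone. GH_D12G1652, described after ESR2, an Arabidopsis factor of shoot regeneration and embryo patterning, had a pileup of 6 and 4.35-fold, 1122 bp upstream (D12, 46678334 to 46678470). GH_D11G0826, ERF038-like, had a pileup of 5 at 3.73-fold, 639 bp upstream. Its peak summit was 60.6 kb from that of GH_D11G0816, the smallest gap between members, and no other members lay within 100 kb of each other. GH_D02G2303, described after ERF109, a redox and wound response factor in Arabidopsis, had a pileup of 5 with the farthest centre of all members, 1997 bp upstream. GH_A07G1724, described as At4g13040-like, had a pileup of 4, 1619 bp upstream. GH_A06G2235 has no informative name, but its gene ontology terms include response to hypoxia. It had a pileup of 5, 940 bp upstream.

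None of the 8 AP2-type genes was in the shorter list. The Wilson 95% interval of this share reached up to 32.4%, and the limit that a count of 0 allows (3 counts of 8) was 37.5%. The background of 34.3%, over genes of all heights, lay between these bounds, and the subgroup was not tested. The AP2-type pileups were 5 at 7 genes and 4 at the other. Over all peaks with pileups of 5 and 4, 14.8% and 1.62% were at genes in both lists. Sharing 1 description were 4 genes named for Arabidopsis At1g16060, known as ADAP or WRI3, an activator of fatty acid synthesis genes. GH_A04G0577, GH_A05G0079, GH_D11G3566 and GH_A09G0256 each had a pileup of 5 and 3.73-fold. Their peaks lay 425, 737, 906 and 1932 bp upstream, in that order, so equal height did not go with a common position. The peak at GH_A09G0256 was the longest of all members at 371 bp, and that at GH_A05G0079 was also annotated to the promoter of the neighbouring gene GH_A05G0080.

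The other AP2-type genes are named after regulators of growth and flowers. GH_A02G1708 is described after AIL6, a PLETHORA-family factor of meristems in Arabidopsis, and had a pileup of 5, 1130 bp upstream. GH_D11G2194 is named for ANT (AINTEGUMENTA), which promotes organ growth, and had a pileup of 4 and 3.11-fold, 1803 bp upstream. GH_A11G2044, described after the floral homeotic gene APETALA 2, had the peak closest to a start site of all members, 189 bp upstream, with a pileup of 5 (A11, 33422853 to 33422985). GH_D03G0823, named for At2g41710, had a pileup of 5, 1752 bp upstream. The authors' label places GH_A11G2044, GH_D03G0823 and GH_D11G3566 in the ERF subfamily although their names are of the AP2 type, so the 2 annotations disagree for these 3 genes.

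NAC genes included 1 of the 2 tallest member peaks. The peak of GH_A09G1390 had a pileup of 9, 6.22-fold and a −log10 q of 5.25 (A09, 69411668 to 69411934), 801 bp upstream. The gene is described after NAC29, known in Arabidopsis as NAP, which promotes leaf senescence. GH_A01G0581 is described after CUP-SHAPED COTYLEDON 2, which sets organ boundaries. It had a pileup of 6 and 4.35-fold over 336 bp, 1499 bp upstream (A01, 7090502 to 7090837). GH_A09G2020, named for NAC62, a membrane-tethered stress factor in Arabidopsis, had a pileup of 6 at 4.35-fold, 1532 bp upstream (A09, 77165473 to 77165621). GH_A06G1138, described after the stress and wound response factor ATAF2, had a pileup of 6 at 4.35-fold, 1697 bp upstream (A06, 48205678 to 48205882). The fifth NAC gene in both lists, GH_A04G1615, has no informative name and had a pileup of 5 at 3.73-fold, 1930 bp upstream (A04, 86341150 to 86341342). All 5 are on the A subgenome, which held 7 of the 10 NAC members.

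The other 5 NAC genes were in the longer list alone, 4 of them with a pileup of 5, as at GH_A04G1615. GH_D04G1957 had a pileup of 5 and 3.73-fold, 514 bp upstream (D04, 55152199 to 55152359), a peak that was also annotated to the promoter of GH_D04G1956. It has no informative name, and its ontology terms, like those of GH_A04G1615, include positive regulation of ethylene biosynthesis. GH_A05G3662, NAC68-like, had a pileup of 5 at 3.73-fold, 1103 bp upstream (A05, 96213719 to 96213882). GH_D12G1972, NAC100-like, also had a pileup of 5 at 3.73-fold, 1251 bp upstream (D12, 51816624 to 51816798). GH_D13G0765 is described after FEZ, which drives root cap stem cell divisions in Arabidopsis, and had a pileup of 5, 1533 bp upstream. GH_A06G0113, NAC82-like, had the lowest NAC pileup, 4, and lay 1918 bp upstream. The median NAC distance was 1515.5 bp, beside 1186 bp over all peaks, and 2 of the 10 NAC peaks lay within 1000 bp. No NAC member was named for the secondary wall regulators NST, SND or VND.

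WRKY peaks differed in height, and 3 of the 4 tallest were in both lists. Pileups of 6 were found at 4 genes, a pileup of 5 at 1 gene and pileups of 4 at 4 genes. GH_A05G2470 is described after WRKY71, which promotes shoot branching in Arabidopsis. Its peak had a pileup of 6 at 4.35-fold, 1304 bp upstream (A05, 25647765 to 25647918), and was in both lists. GH_D03G0476, named for WRKY51, had the same pileup and fold 1705 bp upstream (D03, 6473481 to 6473633) and was in both lists. GH_D06G2111, whose best hit is a cotton protein numbered WRKY46, had the same values 1797 bp upstream (D06, 62126759 to 62126892) and was in both lists. The ontology terms of GH_D03G0476 and GH_D06G2111 both include responses to jasmonic acid and to bacteria.

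GH_A11G1617, WRKY31-like, also reached a pileup of 6 and 4.35-fold, 1074 bp upstream (A11, 19205085 to 19205273), but was in the longer list alone. Its annotated span of 63867 bp was the longest of all members, whose median span was 1622.5 bp. GH_D11G2092, named WRKY15, had a pileup of 5 at 3.73-fold, 604 bp upstream (D11, 25311048 to 25311206). The genes with a pileup of 4, each 3.11-fold with a −log10 q of 0.917, were GH_A13G0765 (WRKY61), GH_D01G2001 (WRKY9), GH_D02G0599 (a cotton WRKY6) and GH_A13G1585 (WRKY20). Their peaks lay 588, 929, 951 and 1005 bp upstream, in that order, the first on chromosome A13 (16968237 to 16968379). All 4 taller WRKY peaks were farther from the start site than these 5 lower ones, at 1074 bp or more against 1005 bp or less. This was seen after the values were known and was not tested.

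MYB genes held the other tallest peak. GH_A12G1832 had a pileup of 9, 6.22-fold and a −log10 q of 5.25, 1759 bp upstream (A12, 93729088 to 93729258). It is described after MYB122, a regulator of indole glucosinolates in Arabidopsis. GH_A06G1476, described after MYB3, an Arabidopsis repressor of phenylpropanoid synthesis, had a pileup of 7, 4.98-fold and a −log10 q of 3.17, 1091 bp upstream (A06, 93061429 to 93061690). Both were in both lists. The third MYB gene in both lists, GH_A09G1436, is a MYB-related gene without an informative name. It had a pileup of 6 at 4.35-fold, 1306 bp upstream (A09, 70128572 to 70128745), and its summit was 717 kb from that of GH_A09G1390.

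Sharing the description transcription repressor MYB6-like were 3 genes on different chromosomes, all in the longer list alone. GH_D07G0217 had a pileup of 7 and 4.98-fold, 1862 bp upstream (D07, 2059037 to 2059185). It was the tallest member missing from the shorter list. Its peak was 149 bp long, and that of GH_A06G1476, with the same pileup and in both lists, was 262 bp long. At a pileup of 6, member lengths overlapped, 134 to 336 bp in both lists and 137 to 189 bp in the longer list alone. GH_A11G1683 had a pileup of 6 at 4.35-fold, 1072 bp upstream (A11, 20433521 to 20433670), and GH_A12G1296 a pileup of 5 at 3.73-fold, 1816 bp upstream. GH_A12G1296 was the only member whose ontology terms named trichomes, the leaf hairs to which fiber is often likened. GH_D08G0405 is described after MYB308, a snapdragon protein known as a repressor of lignin synthesis, and had a pileup of 5, 833 bp upstream.

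The other MYB members were low. GH_D01G0152 is described after ODORANT1, a petunia activator of benzenoid scent genes, and had a pileup of 5 at 3.73-fold, 269 bp upstream (D01, 1125931 to 1126072). GH_D03G1717, whose name points to the three-repeat MYB class of the cell cycle, had a pileup of 5 at 3.40-fold, 714 bp upstream. GH_D05G0776 is named for RADIALIS, the snapdragon factor of flower asymmetry, and also had a pileup of 5 at 3.40-fold, 904 bp upstream. The unnamed GH_D03G1077 had the same values 1449 bp upstream. These 3 peaks had a recovered background of 0.764, above the lowest level, which sets their fold below the 3.73 of other stacks of 5. GH_D09G1386, GH_D05G1337 and GH_D13G1411 had no name that fits a MYB factor and had pileups of 5, 5 and 4, at 1396, 1832 and 801 bp upstream. The best hit of GH_D09G1386 is a muscle protein unc-89-like entry, so its MYB-related label rests on the family column alone.

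The 2 mTERF genes matched by letters lay far upstream. GH_A05G3225 had the lowest fold of all members, 2.97, from a pileup of 5 on a recovered background of 1.02, 1898 bp upstream. GH_A04G0639 had a pileup of 5 at 3.73-fold, 1928 bp upstream. Neither was in the shorter list, and neither had an informative name. Leaving them out, the 4 families numbered 54 genes, with a median fold of 3.73 and 17 in both lists (31.5%, Wilson 95% interval 20.7 to 44.7).

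All 56 member peaks were annotated to the promoter of their own gene, as were 97.8% of all peaks. Distances of the peak centre to the start site ran over 189 to 1997 bp with a median of 1112.5 bp, beside 1186 bp for the 2099 peaks of the list centred within 2000 bp upstream. The nearest 500 bp held 4 member peaks (7.14%) and the next 500 bp 18 (32.1%), with 16 (28.6%) and 18 (32.1%) in the bins beyond. Over all peaks the same bins held 13.8%, 25.4%, 29.4% and 31.4%. Within 1000 bp lay 22 of the 56 member peaks (39.3%, Wilson 95% interval 27.6 to 52.4), beside 39.2% of all peaks. The 4 peaks nearest to a start site were those of the APETALA 2-like, ODORANT1-like, At1g16060-like (GH_A04G0577) and ERF2-like genes. AP2/ERF peaks lay within 1000 bp at 11 of 21 genes, WRKY peaks at 4 of 9, MYB peaks at 5 of 14 and NAC peaks at 2 of 10.

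**Figure D3:**
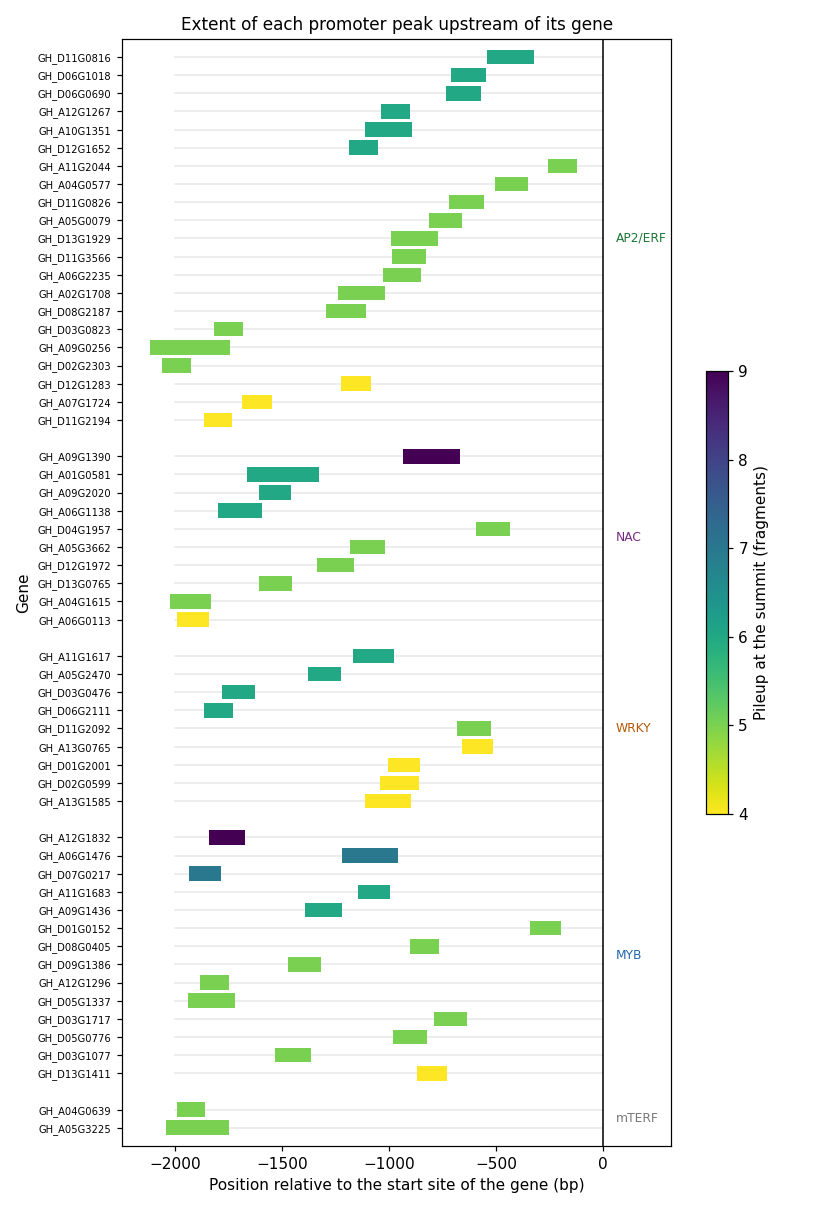
Extent of each of the 56 peaks (bars) along the promoter, in bp relative to the start site of its gene (vertical line at 0), with genes in rows grouped by family and coloured by pileup in fragments. The peaks are spread over the whole 2000 bp window, with 4 centred in the nearest 500 bp, and the 2 darkest bars, with a pileup of 9, are GH_A09G1390 and GH_A12G1832.

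Upland cotton holds an A and a D set of chromosomes, and the members were spread over both. There were 27 members on A and 29 on D (A share 48.2%, Wilson 95% interval 35.7 to 61.0), beside 49.5% on A over all genes placed on a chromosome. Members were found on 23 of the 26 chromosomes, with up to 5 on 1 chromosome, D11. Chromosomes A03, A08 and D10 held none. Of the A members 11 of 27 were in both lists (40.7%, Wilson 95% interval 24.5 to 59.3) and of the D members 6 of 29 (20.7%, 9.85 to 38.4), with overlapping intervals. By family, all NAC and MYB genes in both lists, 5 and 3, were on A. Of all members, 7 of 10 NAC and 5 of 14 MYB genes were on A. Of the AP2/ERF and WRKY genes in both lists, 4 of 6 and 2 of 3 were on D. Of all members, 12 of 21 AP2/ERF and 5 of 9 WRKY genes were on D. Over the whole list 35.3% of A genes and 33.5% of D genes were in both lists. Within 1000 bp of the start site lay 7 of 27 member peaks on A (25.9%, Wilson 95% interval 13.2 to 44.7), beside 38.4% of all upstream A peaks. On D it was 15 of 29 member peaks (51.7%, 34.4 to 68.6), beside 39.8%. None of these splits was tested.

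**Figure D4:**
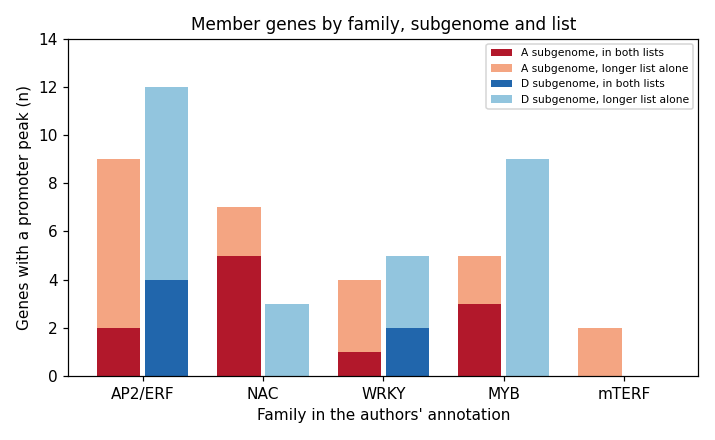
Number of genes with a promoter peak (vertical axis) by family (horizontal axis), with A-subgenome genes in red and D-subgenome genes in blue. The dark part of each bar is the number in both lists; for NAC and MYB it is 5 and 3 on A and 0 on D.

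Gene ontology terms, deposited by the authors, were given for 34 members and for 915 genes of the list. Counts in both lists, given below by word, stand beside 34.3% of all longer-list genes. Some genes carry several of these words, so the counts overlap, and none was tested. Terms naming ethylene were given to 5 members (14.7%), beside 1.64% of all annotated genes, and 4 of these 5 members were in both lists. Terms naming jasmonic acid were given to 4 members (11.8%), beside 2.19%, and all 4 were in both lists. They were GH_A06G1476, GH_D03G0476, GH_D06G2111 and GH_D13G1929. Meristem terms were given to 5 members (14.7%), beside 3.39%, of which GH_A01G0581 was the only one in both lists. Response to chitin, a fungal wall component, was given to 5 members (14.7%), beside 2.62%, 3 of them in both lists. Such terms are common for these families in any plant, and how often they occur over all genes of these families in the genome was not analysed here. Auxin terms were given to 3 members (8.82%), beside 3.17%, with 0 of the 3 in both lists, and response to bacterium to 3 (8.82%), beside 3.83%, with 3 of the 3. Terms naming trichomes, salicylic acid and cytokinin were each given to 1 member (2.94%). Over all annotated genes these shares were 0.874%, 1.20% and 1.64%, in that order. The share was lower than over the list for other words. Terms naming abscisic acid were given to 1 member (2.94%), beside 4.70% of all annotated genes. Terms naming the cell wall were given to 0 of the 34 members, beside 6.99%, and those naming water deprivation also to 0, beside 2.84%. A count of 0 of 34 allows a share of up to 8.82%, above both. Gibberellin terms were likewise given to 0 members, beside 0.546% of all annotated genes. Terms naming strigolactone were given to 0 of the 915 annotated genes, members included.

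Genes were also counted in the longer list by words in their names for partners or pathways of these families. A match by word does not show that a gene acts with them. How many such genes the genome holds was not analysed here. Their counts in both lists, given next, stand beside 34.3% of all genes. The ethylene synthesis and signalling list had 2 genes, both in the longer list alone. GH_D05G2217, described after CTR1, the kinase that represses ethylene signalling, had a pileup of 6 at 3.97-fold. GH_D05G0161, described after the F-box protein EBF1, which removes the ethylene factor EIN3, had a pileup of 4 at 3.11-fold. The list of WRKY partners and activators had 4 genes, 1 of them in both lists, the MAP kinase kinase 6-like gene GH_D07G0104 (pileup 7, 4.98-fold). The words for MYB partners matched 6 genes, 2 of them in both lists. They were 5 genes matched by the word bHLH alone and GH_D13G1115, which is named after the transporter TRANSPARENT TESTA 12 and is no MYB partner. Whether any of the 5 bHLH proteins pairs with a MYB factor was not tested. No co-repressor of the TOPLESS type was matched. Of 8 secondary wall genes matched by name, such as laccases and xylan synthesis genes, 1 was in both lists, IRX10L-like GH_D12G2140 at 4.35-fold.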

How the data were processed

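Per the labels' protocols, a tagged GhD53 was expressed in vitro, combined with a library of fiber genomic DNA, and the complexes were separated; 1 purified and 1 input library were labelled by fraction. Per the submitters' processing notes, BWA, ChIPseeker and deepTools 2.5.4 were used. No source used here names the peak caller, the genome build or a threshold, and coordinates are those of the files. The authors deposited 2 promoter peak lists with, per the file headers, a pileup signal, a fold enrichment (ratio), a −log10 p-value and a −log10 q-value for each peak. Depth is known only as the pileup at each peak, and intervals and the limit for a count of 0 cover counting error only.

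The background was computed back from each peak as (pileup + 1) / fold − 1. Genes were taken from the authors' column, and distance is that of the peak centre. A gene was in both lists where its identifier was in both. Calculations used Python 3.11.15, pandas 2.3.3 and scipy 1.17.1, and the steps were tested on simulated lists. With 1 library per fraction no test between samples was possible, and members are described beside all peaks. Members and word lists were chosen with earlier results of these data known. All members were named, with positions for those in both lists and for the 3 of highest fold per family among the rest. The best hit of 25 members was in the RefSeq table of assembly Gossypium_hirsutum_v2.1, on the same-named chromosome for all 25. No promoter or protein sequence was used here, and the planned motif search was not run.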

Additional observations from a re-analysis of the deposited data

How the results depend on the processing

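The number of members depended on the threshold applied to these low peaks. It was 56 in the list as deposited, 19 with a pileup of 6 or more and 2 with a q-value of 1e-05 or lower, by construction of these limits. A q-value of 0.05 or lower gave 46, and a family label that had to start with the name gave 54. Peaks in their own gene's promoter gave 56. Words in the protein description, searched over the whole list, gave 45, and these included genes without a member label. Of these non-members, GH_A06G0751 (pileup 8), GH_A10G1019 (6), GH_A12G1530 (6) and GH_A13G1052 (5) were named L10-interacting MYB domain proteins. GH_D01G0501, named for AP2/ERF and B3 domains, had a pileup of 4. GH_A06G0751 and GH_A10G1019 were in both lists and the other non-members in the longer list alone. The share in both lists was 30.4% by gene identifier, by an overlap of 1 bp, by a reciprocal overlap of 50% and by centres within 100 bp, and 37.0% among peaks with a q-value of 0.05 or lower. The median fold of 3.73 and the median pileup of 5 were unchanged with the strongest peak of each gene and with a q-value of 0.05 or lower, and the fold also on the lowest background alone. The A share and the share within 1000 bp moved by less than their intervals. No paired analysis was possible because each fraction had 1 library. At 4 to 9 fragments per peak, neighbouring heights differ by 1 fragment, and the absence of a gene from a list does not show that its promoter was unbound.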
